A study of Mus musculus with 6 samples.

Results

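Myc and 37 nucleolar genes of ribosome assembly were followed in sorted mouse CD8+ T cells. The 38 genes were taken as a fixed list of symbols and matched to NCBI gene numbers, and all 38 were found among the 16749 genes listed in at least 1 library. RNA was sequenced from cells of the iLN (the submitters' abbreviation) of C57BL/6 mice, which according to the series title carried tumors and were given the chemotherapy oxaliplatin. There were 6 libraries. In 3 of them the cells were from Id2f/f mice, called WT here, in which the Id2 gene is floxed and no Cre is named, and in the other 3 from Cd4creId2f/f mice, called ID2KO. The floxed allele was therefore shared by both groups, and Cre, driven by Cd4 sequences that are active in developing T cells, was present in ID2KO alone, so effects of Cre and of Id2 loss cannot be told apart. The labels give no age, dose or time, and nothing in them links samples to animals. The p-values thus reflect spread between samples that may be technical in origin.

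Myc is a transcription factor that binds DNA with its partner Max and drives growth in activated T cells, in part by raising the genes that build ribosomes. Ribosomes are assembled in the nucleolus, where RNA polymerase I transcribes a long precursor RNA. Small nucleolar ribonucleoproteins (snoRNPs) modify this RNA, and assembly factors cut it, fold it and join it with ribosomal proteins into a small and a large subunit.

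The libraries held between 7699181 and 8495123 expected counts. Id2 itself stood at 370.98, 146.76 and 149.01 FPKM (fragments scaled by transcript length and sequencing depth) in WT replicates 1 to 3 and at 1.67, 2.64 and 2.12 in ID2KO, which matches the labels. The T cell markers were present, with Cd8a between 196.14 and 231.77 FPKM over the 6 libraries, and 1 of 9 CD8 T cell markers passed the test, lower in ID2KO. Of 16 B cell markers 14 were tested and none passed by edgeR, also at an unadjusted p of 0.05, but their summed level ranged from 944.1 to 3688 FPKM in WT and from 627.3 to 3005 in ID2KO. Summed levels of plasma cell markers ranged from 106 to 125.1 in WT and from 92.27 to 110 in ID2KO. Of 6 tested 2 were lower, Jchain and Prdm1 (log2 fold change -1.48 and -2.50). Sdc1, Xbp1, Mzb1 and Irf4 did not pass (-0.59, 0.02, -1.66 and -0.26). Summed levels of myeloid and dendritic cell markers ranged from 34.87 to 59.59 in WT and from 32.09 to 39.66 in ID2KO. Of 6 tested 2 were lower, Itgax and Zbtb46 (-3.90 and -2.07). Xcr1, Lyz2, Fcgr3 and Itgam did not pass (-0.10, 0.28, -0.52 and -2.62). The part of these cells in the results below was not tested except for B cells, whose marker level was added to the fit as a covariate. In such samples fewer cells of a type and less RNA per cell cannot be told apart. Whether the CD8+ T cells themselves made these marker transcripts was not tested, so a lower marker need not mean fewer cells of its type.

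The ribosome assembly genes stayed within a narrow range between the genotypes. Of the 38 genes, 1 was higher in ID2KO (Heatr1) and 1 lower (Nhp2) by edgeR's quasi-likelihood test at an adjusted p of 0.05, which is 5.26% of them, beside 11.9% of the 10890 genes tested (3.14% higher and 8.77% lower). All 38 passed the filter on low values, and each was above 1 FPKM in all 6 libraries. The log2 fold changes, ID2KO over WT, ran from -0.40 to 0.50 with a median of 0.14, beside a median of 0.01 over all genes tested. For 38 of 38 the 95% interval of the fold change lay within a 2-fold change in either direction, and for 29 within a 1.5-fold change. The same held for 78.69% and 46.33% of all genes tested, and for 98.6% and 77.62% of the other ribosome assembly genes described below. The 38 genes had a median level of 46.27 FPKM. Their median standard error (SE) was 0.112, beside 0.159 over all genes tested.

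**Figure D1:**
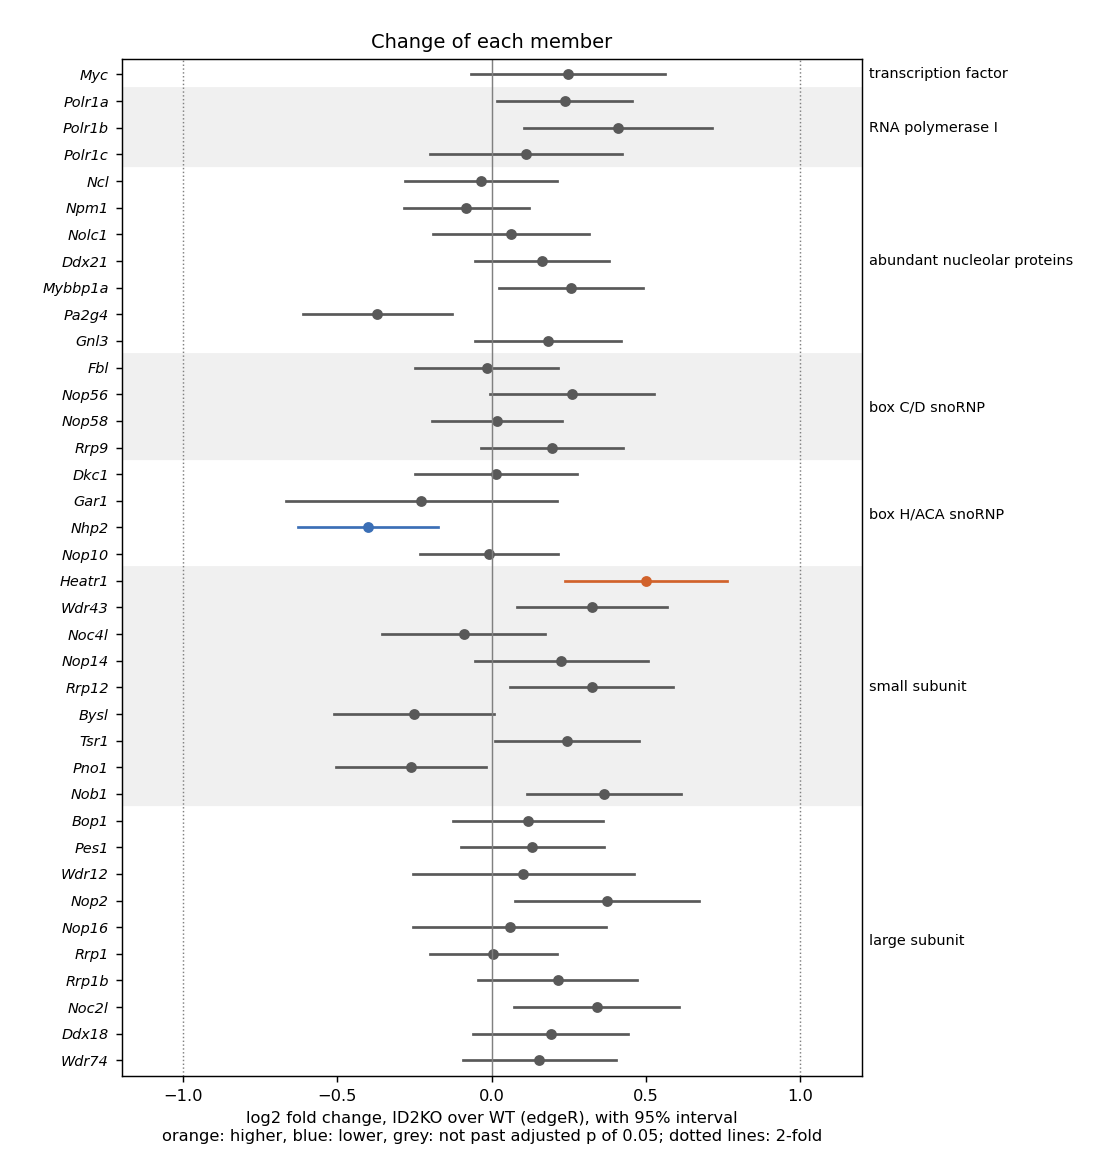
Log2 fold change of each of the 38 genes, ID2KO over WT (x axis), with its 95% interval from edgeR, ordered by role. Heatr1 (orange, 0.50) and Nhp2 (blue, -0.40) passed the threshold, and every interval lies between the dotted lines at a 2-fold change.

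Most of the small differences pointed upwards. Of the 38 genes 28 (73.7%) had a positive log2 fold change, beside 51.9% of all genes tested, and 10 were higher and 3 lower at an unadjusted p of 0.05 (26.3% and 7.89%, beside 11.5% and 16.1% of all genes tested). For 13 genes all ID2KO libraries were above all WT libraries and for 4 all were below (34.2% and 10.5%, beside 15.3% and 16.8%). Single genes therefore mostly failed the adjusted threshold, and the upward lean is a description of these libraries.

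One WT library stood below the others for most of these genes. WT replicate 1 was the lowest WT library for 34 of the 38 genes and the lowest of all 6 for 29, with a median log2 ratio of -0.17 to its group's mean, beside -0.06 over all genes tested. The exceptions were Myc, for which it was the highest WT library, and Polr1a, Nop58 and Nop10. Without this library the median log2 fold change of the 38 genes was 0.09 and 24 of them were positive, beside a median of 0.03 over all genes tested. WT replicate 1 also had the highest Id2 level and, among WT, the lowest summed B cell markers (944.1 FPKM against 3155 and 3688). Its summed myeloid and dendritic cell markers (59.59 against 35.61 and 34.87) and NK cell markers (41.81 against 19.93 and 21.26) were the highest in WT. Not all markers of these 2 lists shared this. Klre1 stood at 25.06 FPKM (against 5.83 and 9.54) and Itgax at 12.85 (against 5.66 and 5.54). Tyrobp stood at 4.46 (against 5.66 and 3.0), and Ncr1 was 0 in all WT libraries. With the B cell level as a covariate 30 of the 38 genes were positive, and the part of the other cell types was not tested. The coefficient of variation was larger in WT than in ID2KO for 34 of 38 genes, with medians of 12.8% and 6.1%.

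**Figure D2:**
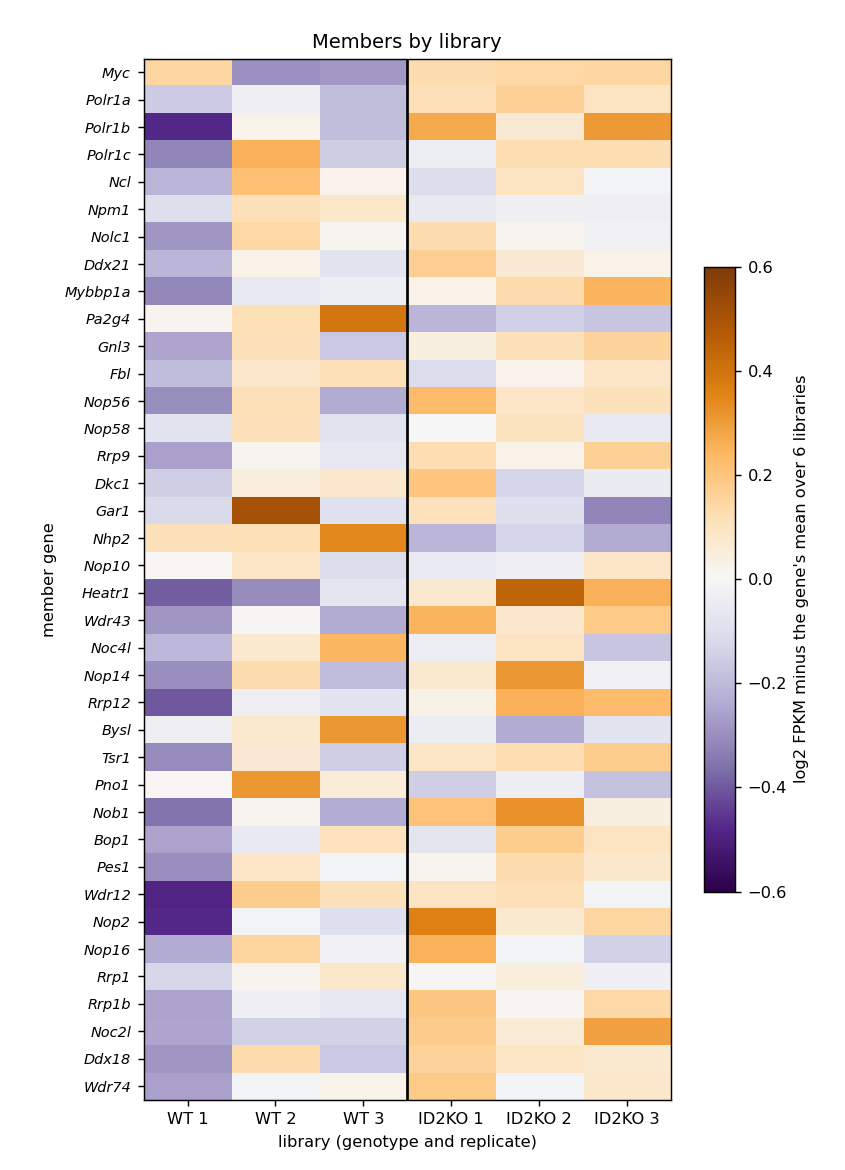
Each row is 1 of the 38 genes and each column 1 library; colour gives log2 FPKM minus the gene's mean over the 6 libraries, orange above and purple below. The column of WT replicate 1 is the lowest of the 6 for 29 genes, while Myc is high there.

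Among these genes, promoter sequence was compared first, since Myc and Max bind the E-box CACGTG. RefSeq promoter windows on GRCm38.p6, from 250 bases before to 50 after a start site, were at hand for 33 of the 38 genes, and Myc, Npm1, Fbl, Rrp12 and Bop1 had none. The E-box, which reads the same on both strands, was in the windows of 6 of the 33 (18.2%), beside 18% of the other ribosome assembly genes and 12.2% of all genes tested that had a window. The 6 sequences are shown because they are the ones that carry it, with the E-box in capitals, 5′ to 3′ on the strand of the gene.
Mybbp1a (chr11:72441347-72441376, +): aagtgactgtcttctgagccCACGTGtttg
Nop2 (chr6:125131811-125131840, +): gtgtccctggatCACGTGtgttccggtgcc
Pes1 (chr11:3963965-3963994, +): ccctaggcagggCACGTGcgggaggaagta
Pno1 (chr11:17211540-17211569, -): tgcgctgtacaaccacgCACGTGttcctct
Tsr1 (chr11:74898092-74898121, +): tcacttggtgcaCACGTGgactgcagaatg
Wdr43 (chr17:71616220-71616249, +): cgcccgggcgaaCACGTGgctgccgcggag
The E-box of Nop2 began 60 bases before the start site and the other 5 began between base 3 and base 41 after it. The 6 genes had a median log2 fold change of 0.25 (from -0.26 to 0.37) and the 27 without an E-box one of 0.11 (from -0.40 to 0.50), so the ranges overlapped. Heatr1 and Nhp2, which moved in opposite directions, both held the ETS factor motif CCGGAAG (searched on both strands, capitals below), as did 9 of the 33 genes (27.3%), 46.7% of the other ribosome assembly genes, 41.4% of the cytosolic ribosomal protein genes and 22.5% of all genes tested with a window. It began 16 bases before the start site of Heatr1 and 23 before that of Nhp2.
Heatr1 (chr13:12395348-12395377, +): gtagtgagaagCCGGAAGttcctatgaggc
Nhp2 (chr11:51619739-51619768, +): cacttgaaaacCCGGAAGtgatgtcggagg
A match of letters does not show that a factor was bound.

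Myc lies on mm10 chromosome 15 from 61985341 to 61990361. It stood at 62.65, 46.20 and 46.56 FPKM in WT and at 61.84, 62.45 and 62.60 in ID2KO. The ID2KO libraries lay close together, and WT replicate 1 was as high as they were, so the groups overlapped. For Myc, ID2KO against WT, the log2 fold change was 0.25 (SE 0.141, 95% interval -0.07 to 0.56, adjusted p = 0.296, edgeR). Without WT replicate 1 it was 0.45 and passed (adjusted p = 0.0289), and in the fit that included the B cell covariate it was 0.13 (adjusted p = 0.568). The direction was positive in all of these fits, and the call rested on leaving out that library.

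Of Myc's relatives, Mycn and Mycl were too low to be tested, with means of 0.303 and 0.12 FPKM in WT. Max, the partner of Myc, stood at 6.83 ± 0.794 (SD, n = 3) and 5.22 ± 0.866 FPKM (log2 fold change -0.40, adjusted p = 0.246, edgeR). Of 11 tested genes of the Myc network 2 fell (18.2%, beside 8.77% of all genes tested). Both encode partners of Max that oppose Myc. Mxd3 fell from 29.2 ± 7.83 to 12.7 ± 2.56 FPKM (log2 fold change -1.21, adjusted p = 0.0063) and Mxi1 from 3.98 ± 0.712 to 2.09 ± 0.119 (-0.95, adjusted p = 0.00934). The list's median log2 fold change was 0.01. Mxd1, the more abundant relative, stood at 35.4 ± 0.983 and 39.7 ± 10.5 FPKM and did not pass (adjusted p = 0.576, edgeR). The rest of the list did not pass either, Mxd4, Mnt and Mga among them (log2 fold change 0.00, 0.23 and 0.29).

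RNA polymerase I makes the precursor RNA. Its largest subunit Polr1a stood at 9.17, 10.05 and 8.96 FPKM in WT and 11.07, 11.49 and 10.95 in ID2KO. The second largest subunit, Polr1b, stood at 10.35, 14.61 and 12.63 FPKM in WT and 17.32, 15.07 and 17.77 in ID2KO. Every ID2KO library was above every WT library for both genes, but neither passed (log2 fold change 0.24 and 0.41, adjusted p = 0.155 and 0.0847, edgeR). Without ID2KO replicate 2, Polr1b stood at 0.50 and passed (adjusted p = 0.0377), which it did in no other alternative fit. Polr1c, a subunit shared with RNA polymerase III, overlapped between the groups, at 43.1 ± 9.07 and 46.9 ± 2.94 FPKM.

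Among the abundant nucleolar proteins, the histone chaperone and assembly factor Npm1 had the highest level of the 38 genes. It stood at 671.18, 773.52 and 754.84 FPKM in WT and 687.86, 701.92 and 700.12 in ID2KO. The groups overlapped, and the log2 fold change of -0.08 had an interval from -0.29 to 0.12. Nucleolin, encoded by Ncl, also overlapped, at 94.3 ± 13.8 and 92.8 ± 6.36 FPKM (log2 fold change -0.03). So did the snoRNP chaperone gene Nolc1 (0.06) and the nucleostemin gene Gnl3 (0.18). The RNA helicase gene Ddx21 and Mybbp1a, which encodes a Myb-binding protein of the nucleolus, were higher in all 3 ID2KO libraries but did not pass (0.16 and 0.26, adjusted p = 0.321 and 0.147).

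Pa2g4, which encodes a growth-regulating protein found on large subunits, differed in the other direction. Its level was 83.93, 90.38 and 109.15 FPKM in WT and 71.92, 75.45 and 73.81 in ID2KO, so all ID2KO libraries were below all WT libraries. The log2 fold change was -0.37 (SE 0.109, interval -0.61 to -0.13) and just missed the threshold (adjusted p = 0.0537, edgeR). DESeq2 gave an adjusted p of 0.0283 and was the only alternative fit in which Pa2g4 passed.

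The box C/D snoRNPs add methyl groups to ribosomal RNA. Fibrillarin, the methyltransferase, is encoded by Fbl, which stood at 115.66, 139.92 and 143.03 FPKM in WT and 122.84, 134.31 and 140.35 in ID2KO. These values overlapped almost fully (log2 fold change -0.02, interval -0.25 to 0.22). The scaffold genes Nop56 and Nop58 had log2 fold changes of 0.26 and 0.02 (adjusted p = 0.191 and 0.931). Nop56 was more abundant than its partner, at 236 ± 37.6 against 83.3 ± 6.44 FPKM in WT. Rrp9, which binds the U3 snoRNA, was higher in all 3 ID2KO libraries and did not pass (0.20, adjusted p = 0.257).

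The box H/ACA snoRNPs turn uridine into pseudouridine and share their proteins with telomerase. Their small core protein Nhp2 was the member that fell. Nhp2 lies on chromosome 11 from 51619773 to 51623718 and stood at 86.23, 86.64 and 101.32 FPKM in WT and 68.97, 72.91 and 67.69 in ID2KO. All ID2KO libraries were below all WT libraries, a log2 fold change of -0.40 (SE 0.102, interval -0.63 to -0.17, adjusted p = 0.0302, edgeR), or 1.32-fold lower. The call ended without WT replicate 1 (adjusted p = 0.0677), WT replicate 3 (0.116), ID2KO replicate 1 (0.0835) or ID2KO replicate 3 (0.147), and with the B cell covariate (0.0642), with log2 fold changes from -0.41 to -0.33. The other core protein genes did not pass the test. Dkc1, the pseudouridine synthase, stood at 51.1 ± 4.16 and 51.9 ± 6.25 FPKM, and Nop10 at 138 ± 8.83 and 138 ± 6.99. Gar1 stood at 16, 24.57 and 16.34 FPKM in WT and 18.68, 16.30 and 13.93 in ID2KO, and its interval was the widest downwards (-0.67 to 0.21).

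**Figure D3:**
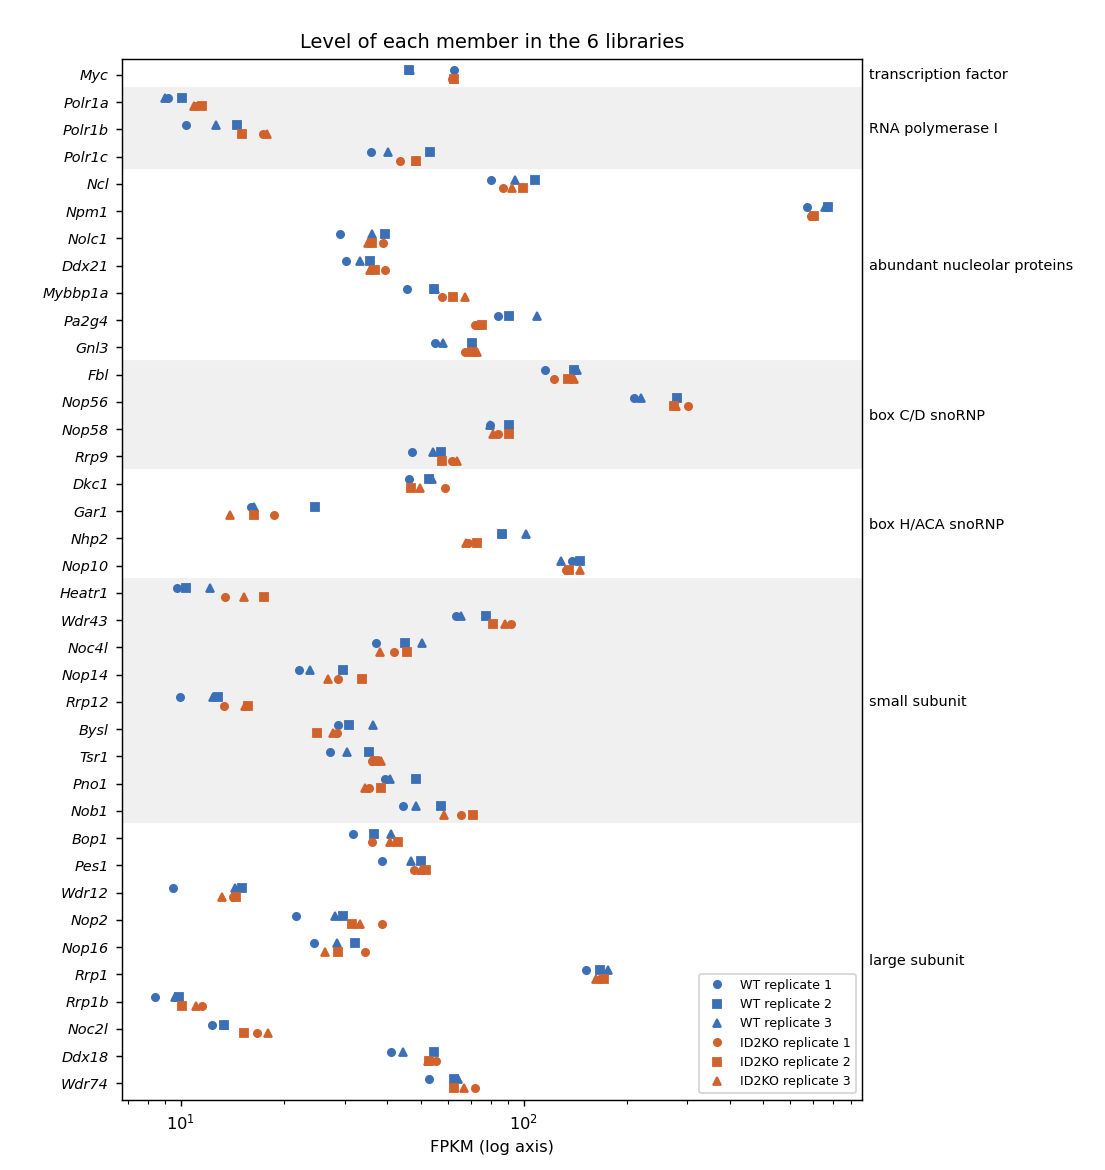
FPKM of each of the 38 genes in each library (x axis, log scale), WT in blue above ID2KO in orange, with a marker shape for each replicate and genes ordered by role. Npm1 is the most abundant, between 671.18 and 773.52 FPKM, and WT and ID2KO points overlap for most genes.

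Of 9 small subunit factors, 1 rose (11.1%, beside 3.14% of all genes tested). Heatr1, a large scaffold of the early small subunit complex that also supports RNA polymerase I, lies on chromosome 13 from 12395375 to 12438893. It stood at 9.75, 10.36 and 12.15 FPKM in WT and 13.46, 17.41 and 15.26 in ID2KO. All ID2KO libraries were above all WT libraries, with a log2 fold change of 0.50 (SE 0.117, interval 0.24 to 0.76, adjusted p = 0.0215, edgeR), or 1.41-fold. The call ended without WT replicate 1 (adjusted p = 0.0606), WT replicate 2 (0.0732) or ID2KO replicate 3 (0.0816) and by limma on log2(FPKM + 1) (0.0616), with log2 fold changes from 0.46 to 0.51.

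The other small subunit factors went both ways. Wdr43, a partner of Heatr1 in the early complex, stood at 63.59, 77.79 and 65.58 FPKM in WT and 91.63, 81.49 and 88.00 in ID2KO (log2 fold change 0.32, adjusted p = 0.0859, edgeR). Nob1, the endonuclease that makes the end of 18S RNA, stood at 44.49, 57.36 and 48.42 FPKM in WT and 65.75, 71.09 and 58.50 in ID2KO (0.37, adjusted p = 0.0632). In neither gene did the groups overlap. DESeq2 called both (adjusted p = 0.0406 and 0.0457). Wdr43 otherwise passed only without ID2KO replicate 2, and Nob1 only with the B cell covariate or without WT replicate 2. Rrp12, an export factor, and Tsr1, a late factor, were also higher in all ID2KO libraries and did not pass (0.32 and 0.24). Pno1, the partner of Nob1, was lower in all ID2KO libraries, at 42.8 ± 5.01 and 36 ± 1.95 FPKM, as was Bysl, at 32 ± 3.99 and 27.1 ± 1.92 (-0.26 and -0.25, adjusted p = 0.152 and 0.196). Noc4l and Nop14, which bind each other, overlapped between the groups (-0.09 and 0.22).

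All 10 large subunit factors had a positive log2 fold change, from 0.01 to 0.37, beside 51.9% of all genes tested with a positive one, and none passed by edgeR or DESeq2. In edgeR, 2 were under an unadjusted p of 0.05. These were Nop2, an RNA cytosine methyltransferase, at 21.62, 29.71 and 28.21 FPKM in WT and 38.71, 31.63 and 33.31 in ID2KO, and Noc2l, at 12.34, 13.34 and 13.31 and at 16.61, 15.27 and 17.91. Neither gene overlapped between the groups (adjusted p = 0.103 and 0.0992). Noc2l passed without ID2KO replicate 2 (adjusted p = 0.0491) and in no other alternative fit, and Nop2 passed in none. Bop1, Pes1 and Wdr12, which form 1 complex, had log2 fold changes of 0.12, 0.13 and 0.10 and overlapped. Their levels in WT were 36.4 ± 4.58, 45.2 ± 6.04 and 13 ± 3.02 FPKM. Of the related pair Rrp1 and Rrp1b, Rrp1 was by far the more abundant, at 165 ± 11.9 against 9.28 ± 0.767 FPKM in WT, and had a log2 fold change of 0.01 beside 0.21 for Rrp1b. The helicase gene Ddx18, Nop16 and Wdr74 overlapped (0.19, 0.06 and 0.15).

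Other ribosome assembly genes, taken from 5 lists made by role, also had few calls. Of 143 tested, 3 were higher and 3 lower (2.1% each, beside 3.14% and 8.77% of all genes tested). Their median log2 fold change was 0.07, but the lists differed. The median was -0.03 for the RNA polymerase I machinery, 0.04 for small subunit factors and 0.07 for snoRNP assembly. It was 0.12 for large subunit assembly, with 36 of 51 genes positive, and -0.15 for the nuclear exosome, with 12 of 16 negative. Higher were Mdn1, the giant ATPase that remodels the large subunit (4.04 ± 0.413 to 6.53 ± 0.451 FPKM, log2 fold change 0.68, adjusted p = 0.00292, edgeR), the kinase gene Riok1 (0.50, adjusted p = 0.0192) and the RNA polymerase I factor gene Taf1c (0.53, adjusted p = 0.0401). Lower were Exosc9 and Exosc3, subunits of the RNA exosome (-0.55 and -0.44, adjusted p = 0.0131 and 0.0193), and Ruvbl2, an ATPase of snoRNP assembly (-0.70, adjusted p = 0.0332). Of the calls, that of Mdn1 held without any 1 library. Taf1c no longer passed when WT replicate 1, WT replicate 3 or any 1 ID2KO library was left out (adjusted p from 0.0628 to 0.143). Nor did Ruvbl2 when WT replicate 2, WT replicate 3 or any 1 ID2KO library was left out (0.0541 to 0.146). Riok1 lost it without WT replicate 3 (0.0864) or ID2KO replicate 1 (0.0523), Exosc3 without WT replicate 2 (0.066), ID2KO replicate 1 (0.0612) or ID2KO replicate 3 (0.099), and Exosc9 without WT replicate 3 (0.0588) or ID2KO replicate 3 (0.0824).

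Transcripts of the ribosomal proteins themselves also lay close between the genotypes. Among 79 such genes for the cytosolic ribosome, edgeR, DESeq2 and limma each called 0, beside 11.9% of all genes tested by edgeR. Before adjustment edgeR placed 2 below 0.05, both higher (2.53%, beside 11.5% of all genes tested). Their median log2 fold change was 0.07, and 66 were positive (83.5%, beside 51.9%). For 13 all ID2KO libraries were above all WT libraries and for 0 all were below (16.5% and 0%, beside 15.3% and 16.8%). For 78 of them the 95% interval lay within a 1.5-fold change (98.73%, beside 46.33%). Rpl13 stood at 3790 ± 242 and 4276 ± 53.8 FPKM and Rps27 at 6927 ± 1191 and 8639 ± 736. Many of these genes have near-identical pseudogenes, which makes their share of reads uncertain.

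Growth genes outside the nucleolus that are commonly linked to Myc leaned the other way. Of 30 tested 7 fell (23.3%, beside 8.77% of all genes tested, edgeR) and 0 rose by edgeR, DESeq2 or limma. At an unadjusted p of 0.05 in edgeR, 12 were lower and 0 higher (40% and 0%, beside 16.1% and 11.5% of all genes tested). The list had a median of -0.25 in log2 fold change, beside 0.01 over all genes tested. Ran, a nuclear transport GTPase, averaged 274 ± 31.9 FPKM in WT and 165 ± 7.13 in ID2KO (log2 fold change -0.74), and its binding partner Ranbp1 260 ± 28.6 and 169 ± 16.8 (-0.64). The cell cycle kinase gene Cdk4 averaged 139 ± 26.9 and 84.3 ± 7.07 FPKM (-0.73), and lactate dehydrogenase, Ldha, 869 ± 156 and 546 ± 29.9 (-0.68). Leaving out ID2KO replicate 3 reduced the 7 calls to 4. Proliferation markers fell in 20 of 20 cases, with a median log2 fold change of -2.41, and their summed level was 1405 to 1942 FPKM in WT and 459.6 to 663.5 in ID2KO. The nucleolar genes and the proliferation markers were thus measured in the same libraries with medians of 0.14 and -2.41. The difference between these lists was not tested.

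**Figure D4:**
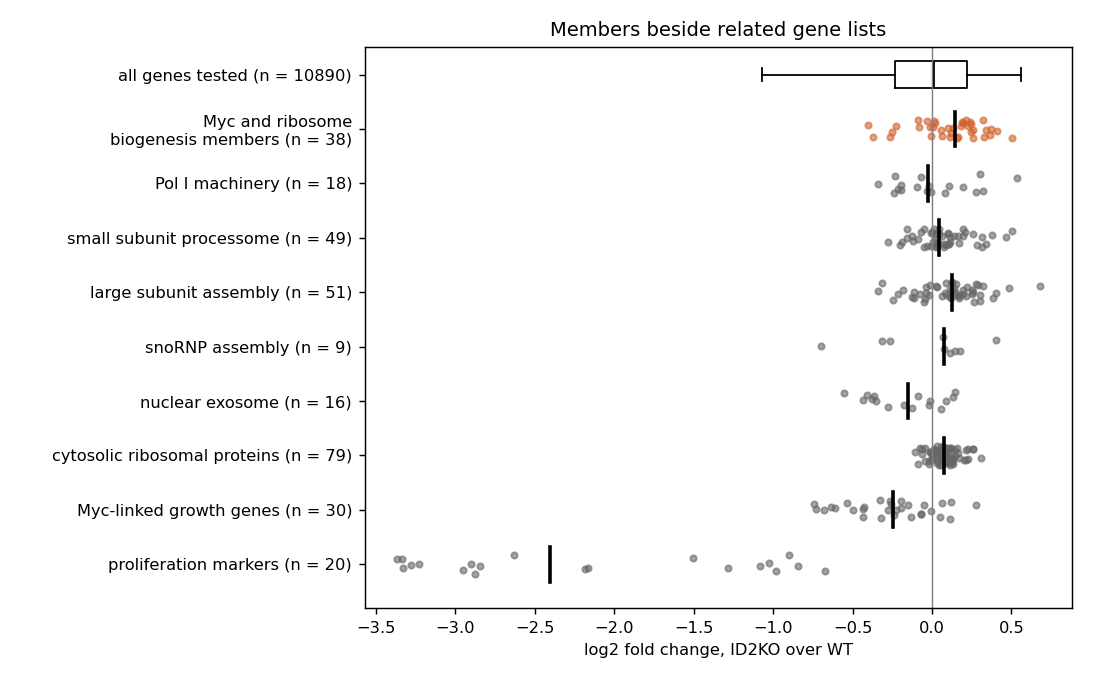
Log2 fold changes, ID2KO over WT (x axis), of the 38 genes (orange) and of related lists (grey), 1 point a gene, with a bar at each list's median; the box for all 10890 genes spans the quartiles and its whiskers the 5th to 95th percentile. The 38 genes centre on 0.14 and the proliferation markers on -2.41.

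The change went with transcript length, in the nucleolar genes and, more weakly by correlation, over all genes tested. Across the 38 genes Pearson's r between log10 length and log2 fold change was 0.42 (Spearman's rho 0.42), and across the other 143 assembly genes r was 0.48 (rho 0.42), beside 0.06 (rho 0.18) over all genes tested. These are correlations across genes that share the same 6 libraries, and genes are not independent replicates. The 7 genes with transcripts under 1500 bases, Nhp2 among them, had a median of -0.02, the 19 from 1500 to 3000 bases one of 0.13, and the 12 of 3000 bases or more, Heatr1 among them, one of 0.24. Over all genes tested the medians of these classes followed the same order, at -0.11, -0.01 and 0.08, so the gradient is not shown to be particular to the nucleolar genes. With each library left out, r across the 38 genes was between 0.36 and 0.47. Level went the other way, with r = -0.34 between log2 mean FPKM and log2 fold change across the 38. Across the other 143 assembly genes this r was -0.3, and over all genes tested it was 0.02 (rho -0.07). The part of RNA quality in this relation was not tested.

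**Figure D5:**
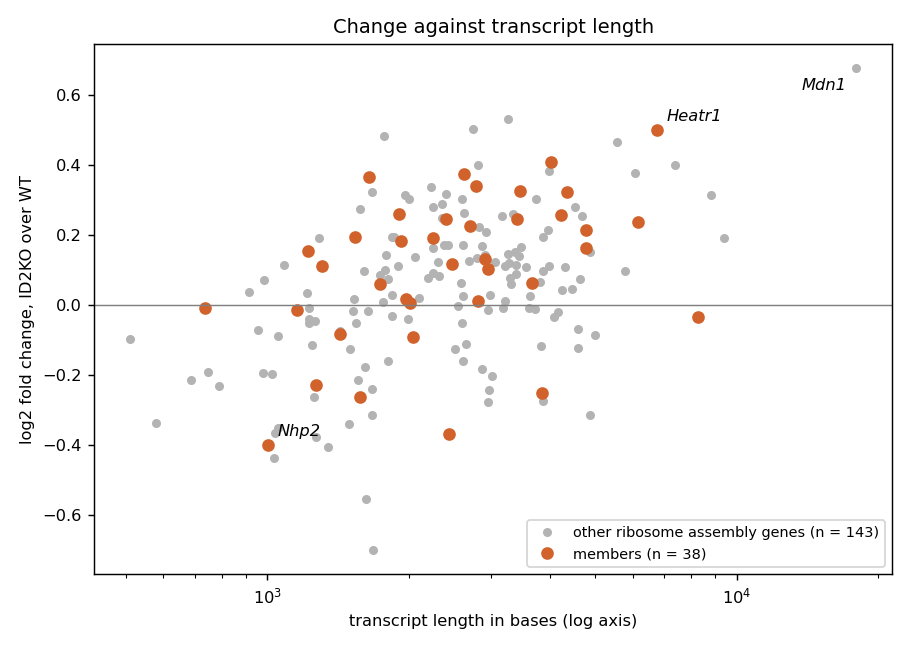
Log2 fold change, ID2KO over WT (y axis), against transcript length in bases (x axis, log scale) for the 38 genes (orange) and 143 other ribosome assembly genes (grey). Nhp2 is short and low, Heatr1 and Mdn1 are long and high, and r is 0.42 for the orange points.

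The gene models show 2 further features. In GENCODE vM21 (GRCm38), 7 of the 38 genes (18.4%) held snoRNA genes on their own strand, 21 in all, beside 1.96% of the tested genes found in that annotation. The hosts were Ncl, Gnl3, Nop56, Nop58, Dkc1, Wdr43 and Tsr1, and their median log2 fold change was 0.18, beside 0.13 for the other 31 genes. Also, 18 of the 38 shared exonic bases with a gene on the opposite strand, and the sources used here do not say if strand entered the counting. Of these 18, Dkc1, Bysl, Rrp1b and Noc2l had expected counts that were not whole. The others, Heatr1, Nhp2, Tsr1 and Pno1 among them, had whole counts in all libraries, which show no split reads. How reads in the shared bases were assigned was not tested. Heatr1 shared 155 exonic bases with Lgals8 (log2 fold change 0.14, adjusted p = 0.489, edgeR), and Nhp2 shared 44 with Rmnd5b (0.07, adjusted p = 0.76). The longest stretch was the 1240 bases of Tsr1 and Srr. Bysl shared 361 bases with Ccnd3, which was more abundant (188 and 149 FPKM in WT and ID2KO) and whose log2 fold change was -0.33 (adjusted p = 0.0854, edgeR), beside -0.25 for Bysl. The expected counts of Bysl were also not whole, so some of its reads were shared with other genes or transcripts. Pno1 shared 33 bases with Wdr92, which rose (log2 fold change 0.89, adjusted p = 0.00527).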

How the data were processed

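Total RNA of FACS-sorted CD8+ T cells was sequenced, 3 WT and 3 ID2KO libraries. CASAVA, Bowtie2, RSEM and build mm10 are named in the submitters' processing notes, without versions or settings. The deposited tables give, per the file headers, an expected count per gene and the FPKM value, which the authors scaled by transcript length and library size. Per library, 25% to 26.2% of the genes had an expected count with decimals, and 30 of the 38 genes had whole counts in all libraries. A gene missing from a table was taken as 0. Symbols came from RefSeq's table for GRCm38.p6 (16707 of 16749 numbers matched); 4 list symbols were matched by an older name.

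Expected counts were rounded, scaled by TMM and tested with edgeR 4.0.16 in R 4.3.3 (quasi-likelihood, two-sided, Benjamini-Hochberg over all genes, threshold 0.05) on 10890 genes with at least 1 FPKM in at least 3 libraries; 5859 were left out. SE is the log2 fold change divided by the square root of F, and 95% intervals use its t distribution. The fit was checked on simulated counts with changes of 2-fold or more, so the check does not cover changes as small as those of the 38 genes. No libraries were duplicates (chi-square per degree of freedom 5.62 to 18.6). Same-numbered libraries had correlations of deviations of 0.118, 0.075 and -0.0303, so replicate numbers were not taken as pairs. The members and lists were chosen with earlier results of these data known. Outside the 38 genes, names follow a rule (the 4 smallest p and the 2 most abundant of each list); not all are described. Mycn, Mycl, Mxd4, Mnt, Lgals8, Rmnd5b, Srr, Ccnd3, Wdr92, Cd8a and the named plasma, myeloid, dendritic and NK cell markers were added after their values were seen. Alternatives were DESeq2 1.42.0, its size factors, library size alone, removal of the 50 most abundant genes, limma 3.58.1 on log2(FPKM + 1, 0.5 or 0.1), no filter, an FPKM minimum of 5, a replicate block, a B cell covariate and leaving out each library. Python 3.11.15, pandas 2.3.3 and matplotlib 3.10.9 were used.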

Additional observations from a re-analysis of the deposited data

How the results depend on the processing

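Over 17 alternatives the median log2 fold change of the 38 genes stayed between 0.09 and 0.20, within the spread between libraries, and 20 of the 38 genes kept direction and side of the threshold in all. Counts of 1 higher and 1 lower gene became 3 and 2 by DESeq2, 0 higher by limma with a pseudocount of 1, 0.5 or 0.1, 2 higher and 0 lower with the B cell covariate, and 0 to 4 higher and 0 to 1 lower without 1 library. With the replicate number as a block 1 was higher and 0 lower, since Nhp2 stood at -0.40 (adjusted p = 0.0525); same-numbered libraries shared only a number. Without WT replicate 1, Myc passed at 0.45; over the fits without 1 library it ranged from 0.15 to 0.45. Over all genes, 84 to 480 were higher and 517 to 1082 lower without 1 library (342 and 955 in all), and of other assembly genes 1 to 4 higher and 0 to 3 lower. The cause was not tested. Depth is no limit on the level of these genes, whose 3 libraries held at least 603 counts in WT and 482 in ID2KO, but 3 libraries a group leave intervals of about the sizes given.

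Directions turned in genes that did not pass in either fit, with log2 fold changes between -0.09 and 0.15. Nop10 (-0.01) was 0.00044 by DESeq2, 0.00046 with its size factors, 0.0046 with library size alone, 0.0065, 0.0065 and 0.0066 by limma and 0.0049 with no filter. Fbl (-0.02) was 0.00015, 0.00017 and 0.00019 by limma. With the B cell covariate Fbl was 0.024, Ncl 0.045, Dkc1 -0.033, Noc4l 0.019, Ddx47 -0.0040 and Rsl1d1 -0.0037. Without 1 library, the ranges were -0.10 to 0.055 for Ncl, -0.015 to 0.14 for Nolc1, -0.072 to 0.034 for Fbl, -0.023 to 0.065 for Nop58, -0.093 to 0.10 for Dkc1, -0.063 to 0.032 for Nop10, -0.17 to 0.0061 for Noc4l, -0.051 to 0.21 for Wdr12, -0.063 to 0.15 for Nop16, -0.013 to 0.045 for Rrp1, -0.026 to 0.033 for Ddx47, -0.048 to 0.12 for Rsl1d1, -0.062 to 0.26 for Mxd1 and -0.040 to 0.19 for Mlxip.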
